A study of Homo sapiens with 24 samples.

Results

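Homologous recombination and the Fanconi anaemia pathway repair broken and crosslinked DNA, and 41 of their genes were examined here in P3HR1 cells, an established Burkitt lymphoma line. A gene entered with every probe set whose only symbol in the platform annotation was that gene. Of the 41 genes, 37 had such a probe set, and BRCA2, FANCA, FANCD2 and RBBP8 are not analysed here. The 37 genes had 82 probe sets, out of 19775 genes and 54675 probe sets on the array. All 37 passed the filter on low values, as did 78 of the 82 probe sets. The probe sets that did not were 1 each of ATM and FANCC and 2 of RAD51B.

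All cells carried the doxycycline-inducible pRTS1 vector. In miR28 cells the vector made green fluorescent protein (GFP) together with the precursor of miR-28, and in CTR cells it made GFP alone. Each genotype had 2 bulk populations, A and B, each induced in triplicate for 12 h and for 24 h, which gave 4 groups of 6 arrays: miR28 cells at 12 h and 24 h, and CTR cells at 12 h and 24 h. All groups received doxycycline, whose dose the labels give as 0.1 ug/ml in one field and as 1 ug/ml in another. Because no uninduced cells were analysed here, an effect of induction and a difference that the populations already had cannot be told apart. Replicates were repeated inductions of a pair of populations per genotype, so a p-value here rests mainly on the spread of inductions, which can be smaller than that of separately made populations.

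Recombination repairs a double-strand break by copying an intact sister chromatid. MRN and EXO1 cut the break back to single strands, the BRCA1-PALB2-BRCA2 complex and the strand exchange genes prepare these strands to pair with the sister, and BLM with TOP3A, RMI1 and RMI2 dissolves the joined molecules. At a crosslink the Fanconi core complex, with UBE2T as its ubiquitin-conjugating enzyme, adds ubiquitin to the FANCI-FANCD2 pair, which starts the unhooking of the crosslink. Many of these genes are known to be transcribed most in dividing cells during DNA synthesis, and B cells of the germinal centre, from which Burkitt lymphoma arises, divide rapidly.

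A miRNA of the miR-28 precursor, which the miR28 vector carried and the CTR vector did not, is shown first. The miRNA is printed 5' to 3' with its seed, bases 2 to 8, in capitals. It comes from RefSeq, where it lies at chr3:188688834-188688855 on the plus strand of GRCh38.p14. The other arm of the hairpin, hsa-miR-28-5p, is named only, because its sequence was not in the reference used.
hsa-miR-28-3p: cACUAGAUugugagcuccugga

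Promoters of 4 of the genes that were lower in miR28 cells at 24 h are shown. These 4 stayed lower by the threshold below when any single array was left out. Whether they share regulation was not tested. The CCAAT box, a motif bound by the factor NF-Y, is marked where present. Each runs 5' to 3' on the gene's strand over 250 bases before and 50 after the RefSeq start on GRCh38.p14, with CCAAT, or ATTGG where it lies on the opposite strand, in capitals. BLM lies at chr15:90717096-90717395 (plus strand), UBE2T at chr1:202341887-202342186 (minus strand), BRCA1 at chr17:43125315-43125614 (minus strand) and RAD51C at chr17:58692323-58692622 (plus strand). BRCA1 and RAD51C each have another window in the same table.
BLM: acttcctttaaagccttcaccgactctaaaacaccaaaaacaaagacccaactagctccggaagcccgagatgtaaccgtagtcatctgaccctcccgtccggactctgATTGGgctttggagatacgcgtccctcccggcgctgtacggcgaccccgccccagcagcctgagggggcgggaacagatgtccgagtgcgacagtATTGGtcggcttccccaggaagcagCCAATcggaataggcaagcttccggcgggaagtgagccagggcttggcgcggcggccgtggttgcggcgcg
UBE2T: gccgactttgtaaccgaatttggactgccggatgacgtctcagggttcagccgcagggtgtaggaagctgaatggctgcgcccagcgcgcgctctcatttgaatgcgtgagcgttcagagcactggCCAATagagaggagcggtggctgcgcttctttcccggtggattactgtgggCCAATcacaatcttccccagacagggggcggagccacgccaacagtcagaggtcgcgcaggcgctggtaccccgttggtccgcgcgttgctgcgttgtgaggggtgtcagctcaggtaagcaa
BRCA1: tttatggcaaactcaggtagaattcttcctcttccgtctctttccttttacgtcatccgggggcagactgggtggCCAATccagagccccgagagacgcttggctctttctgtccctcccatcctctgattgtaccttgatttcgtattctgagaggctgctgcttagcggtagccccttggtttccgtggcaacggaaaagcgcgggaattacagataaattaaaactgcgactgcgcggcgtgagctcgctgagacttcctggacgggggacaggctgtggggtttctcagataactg
RAD51C: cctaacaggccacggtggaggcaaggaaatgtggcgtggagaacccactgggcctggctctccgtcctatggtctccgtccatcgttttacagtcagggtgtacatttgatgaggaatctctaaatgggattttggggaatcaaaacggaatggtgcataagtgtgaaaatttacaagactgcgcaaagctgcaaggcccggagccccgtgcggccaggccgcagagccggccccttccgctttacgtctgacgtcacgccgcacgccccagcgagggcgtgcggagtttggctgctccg

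BLM held the motif at positions -141, -46 and -21 from its start, UBE2T at -124 and -73, and BRCA1 at -175. RAD51C held none in this window or in its other window, and the other window of BRCA1, chr17:43170278-43170577, held none either. A match describes these letters and does not show that a factor binds there.

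Within a group, arrays correlated across genes at r = 0.954 to 0.969, and no pair was identical. The 3' over 5' ratio of the ACTB control, a measure of RNA quality, exceeded 1 on the log2 scale on 2 arrays. These were the miR28 array of population B, induction 2, at 12 h (1.05) and the CTR array of population B, induction 2, at 24 h (1.59). The B-cell identity of the line was checked with 7 B-cell markers, whose median intensity was 9219. The median was 52.1 over T-cell markers, 62.3 over myeloid markers, 34.9 over NK-cell markers and 126 over markers of fibroblasts and epithelium. The brightest of these was DCN, at 515. Summed over each list, the markers of these 4 other cell types overlapped between miR28 and CTR arrays at 24 h. Only those above the filter on low values were tested, and none of these was called. They were 1 of 6 T-cell, 2 of 4 myeloid, 1 of 4 NK-cell and 3 of 5 fibroblast and epithelial markers with a probe set. Of the B-cell markers CD79B, BLNK and BANK1 were higher in miR28 cells at 24 h, and the part of this in the results was not tested. In bulk cells, fewer cells in a phase of the cell cycle and less RNA per cell cannot be told apart.

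After 24 h of induction 7 of the 37 genes were lower in miR28 than in CTR cells and none was higher. They were BRCA1, RAD51C, BLM, RMI1, UBE2T, CHEK1 and EME1, with log2 fold changes of -0.27 to -0.50. A gene was called where limma's two-sided moderated test had a Benjamini-Hochberg adjusted p under 0.05 over all 11380 genes tested. Of all genes 2.75% were called lower and 2.6% higher, against 18.9% and 0 of the recombination and Fanconi genes. The median log2 fold change was -0.22 over the 37 genes and 0.02 over all genes. Of the 37, 29 lay below 0, as did 46.1% of all genes. An unadjusted p under 0.05 was reached by 17 of the 37 and by 18.8% of all genes.

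**Figure D1:**
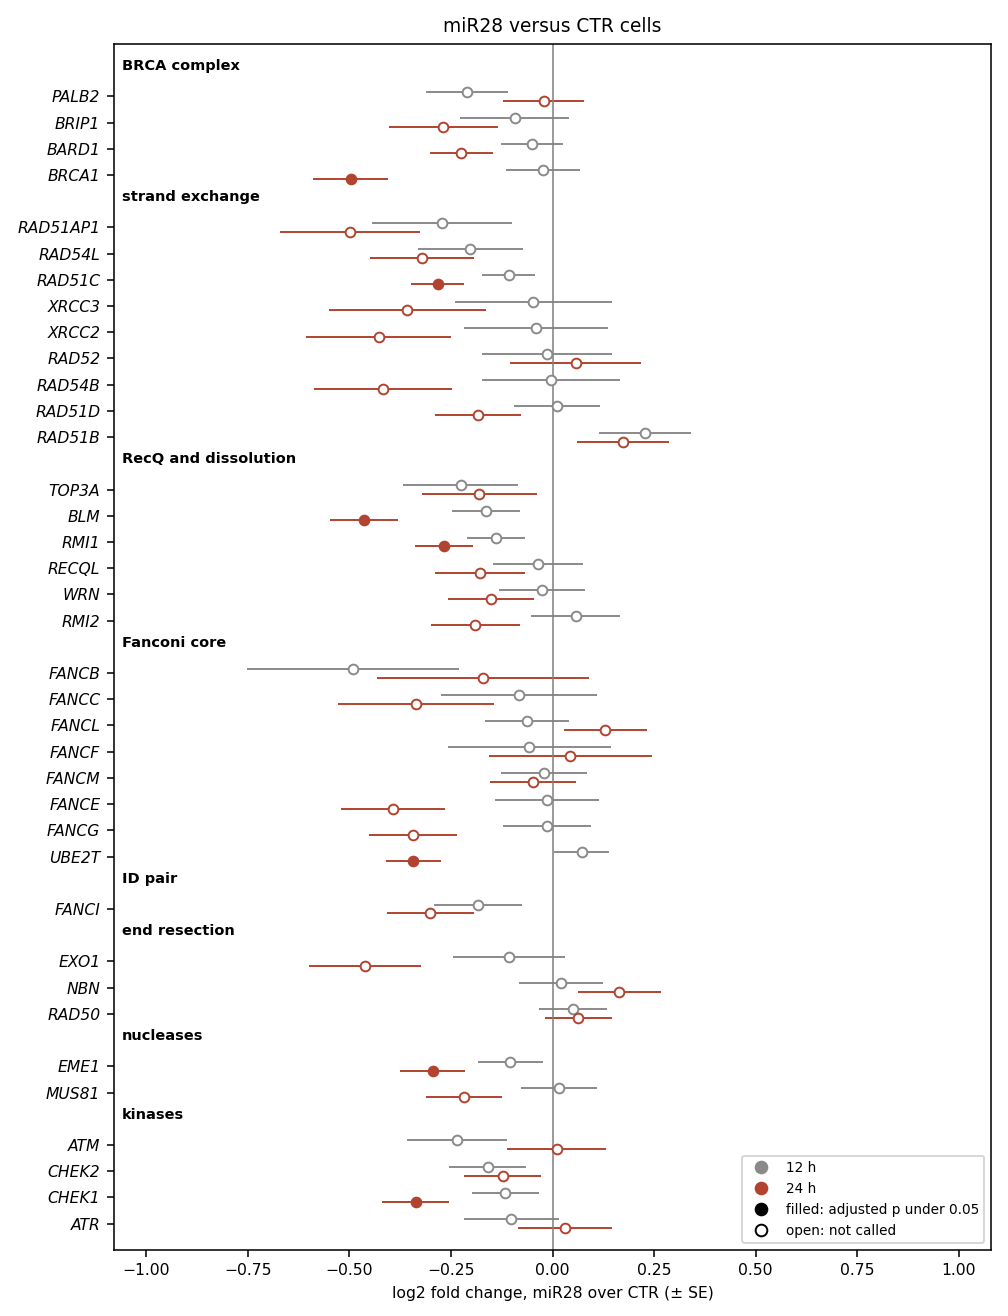
Log2 fold change of miR28 over CTR cells (horizontal axis) for each of the 37 genes, grouped by role, at 24 h in red and at 12 h in grey; points are limma estimates on the log2(intensity + 8) scale, bars their standard errors, and filled points were called. The 7 filled points, all at 24 h, lie left of 0.

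Among the genes of the BRCA complex, BRCA1, the ubiquitin ligase that promotes resection, changed. In miR28 cells at 24 h the BRCA1 intensity was 1869 at its lowest, 2043 at the median and 2308 at its highest, against 2511, 3011 and 3564 in CTR cells. All 6 miR28 arrays lay below all 6 CTR arrays. The log2 fold change was -0.50 ± 0.09 (SE, n = 6 arrays each; limma adjusted p 0.00205). A second BRCA1 probe set gave -0.48 ± 0.13, with a limma adjusted p of 0.0519 in a fit of every probe set. BARD1, the ligase partner of BRCA1, had -0.22 (limma adjusted p 0.0915), and the helicase BRIP1 had -0.27 (limma adjusted p 0.285). PALB2, the bridge between BRCA1 and BRCA2, had -0.02.

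Among the 9 strand exchange genes RAD51C was called. RAD51C forms complexes with RAD51B, RAD51D, XRCC2 and XRCC3 that act at single strands during strand exchange. Its intensity was 2598, 2884 and 3201 (lowest, median and highest) in miR28 cells at 24 h, against 3373, 3477 and 3829 in CTR cells, without overlap. The fold change was -0.28 ± 0.07 on the log2 scale (SE; limma adjusted p 0.0117). Its second probe set gave -0.23 (limma adjusted p 0.0592). RAD54B, a motor protein of strand exchange, was not called (-0.42, limma adjusted p 0.172), although its miR28 arrays (515 to 638) did not overlap its CTR arrays (664 to 856). RAD51AP1, which stimulates the pairing of strands, had the largest estimate of the 37, -0.50 ± 0.17, and was not called (limma adjusted p 0.0966), with miR28 arrays at 1434 to 2775 and CTR arrays at 2108 to 3949. RAD54L, XRCC2 and XRCC3 had -0.32, -0.43 and -0.36, and RAD51D had -0.18. RAD51B and RAD52 had 0.17 and 0.06, and none of these 6 was called.

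In the group of RecQ helicases and junction dissolution BLM and RMI1 were called. BLM, the helicase mutated in Bloom syndrome, had intensities of 2201, 2604 and 2085 in the 3 inductions of miR28 population A at 24 h and 2063, 1817 and 2240 in population B. In CTR cells BLM had 3073, 2721 and 2947 in population A and 2984, 3494 and 2710 in population B. Every miR28 array lay below every CTR array. The log2 fold change was -0.46 ± 0.08 (SE; limma adjusted p 0.00152), the smallest p of the 37 genes. RMI1, which holds BLM to its topoisomerase TOP3A, had 3466, 3658 and 4140 in miR28 cells (lowest, median and highest), against 4247, 4405 and 5344 in CTR cells, also without overlap. Its fold change was -0.27 ± 0.07 on the log2 scale (SE; limma adjusted p 0.0279). The RMI1 call was lost without any of the miR28 24 h arrays A3, B1, B2 or B3, each taken singly, and without the CTR 24 h array B2. RMI2 had -0.19, TOP3A -0.18, RECQL -0.18 and WRN, the helicase of Werner syndrome, -0.15, and these 4 were not called.

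In the Fanconi core group UBE2T was called. UBE2T had 6097, 6812 and 7531 in miR28 cells at 24 h (lowest, median and highest), against 7783, 8628 and 9378 in CTR cells. The groups did not overlap, and the log2 fold change was -0.34 ± 0.07 (SE; limma adjusted p 0.00347). FANCG and FANCE, both structural subunits of the core, had -0.34 and -0.39 and missed the threshold (limma adjusted p 0.0659 and 0.0758). FANCC had -0.34, FANCB -0.17 and FANCM, the translocase that recruits the core to DNA, -0.05. FANCL, the ligase of the core, had 0.13 and FANCF had 0.04. FANCI, which receives ubiquitin from UBE2T and FANCL, had -0.30 ± 0.11 (limma adjusted p 0.109). FANCI had 3 probe sets, and in the fit of every probe set the second was called (-0.37 ± 0.10, limma adjusted p 0.0483) while the others had -0.30 and -0.39.

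CHEK1, the kinase that halts the cycle when replication stalls, was called among 4 kinases. It had 3345, 2894 and 2421 in the 3 inductions of miR28 population A at 24 h and 2366, 2397 and 2297 in population B, against 3257, 3285 and 3290 in CTR population A and 3416, 3298 and 3140 in CTR population B. The first of these miR28 arrays lay within the CTR range and the other 5 below it. The log2 fold change was -0.34 ± 0.08 (SE; limma adjusted p 0.0177), and the call was lost without the miR28 24 h array B1. Its other 3 probe sets gave -0.38, -0.28 and -0.29 and were not called. CHEK2 had -0.12, and the upstream kinases ATM and ATR had 0.01 and 0.03, none of them called.

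Of the nucleases EME1 was called, and its partner MUS81, with which it cuts branched DNA, was not (-0.22, limma adjusted p 0.199). EME1 had 649, 788 and 883 in miR28 cells (lowest, median and highest), against 809, 961 and 1086 in CTR cells. The groups overlapped, and the log2 fold change was -0.29 ± 0.08 (SE; limma adjusted p 0.0317). A second, dimmer EME1 probe set had -0.68 ± 0.14 in the fit of every probe set (limma adjusted p 0.00656), in which the brighter set was not called (limma adjusted p 0.0595). The EME1 call was lost without any of 8 single arrays at 24 h, the miR28 and the CTR arrays A2, B1, B2 and B3. Of the resection genes, the nuclease EXO1 had -0.46 ± 0.14 and just missed the threshold (limma adjusted p 0.0524). NBN and RAD50, subunits of the MRN complex, had 0.16 and 0.06.

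**Figure D2:**
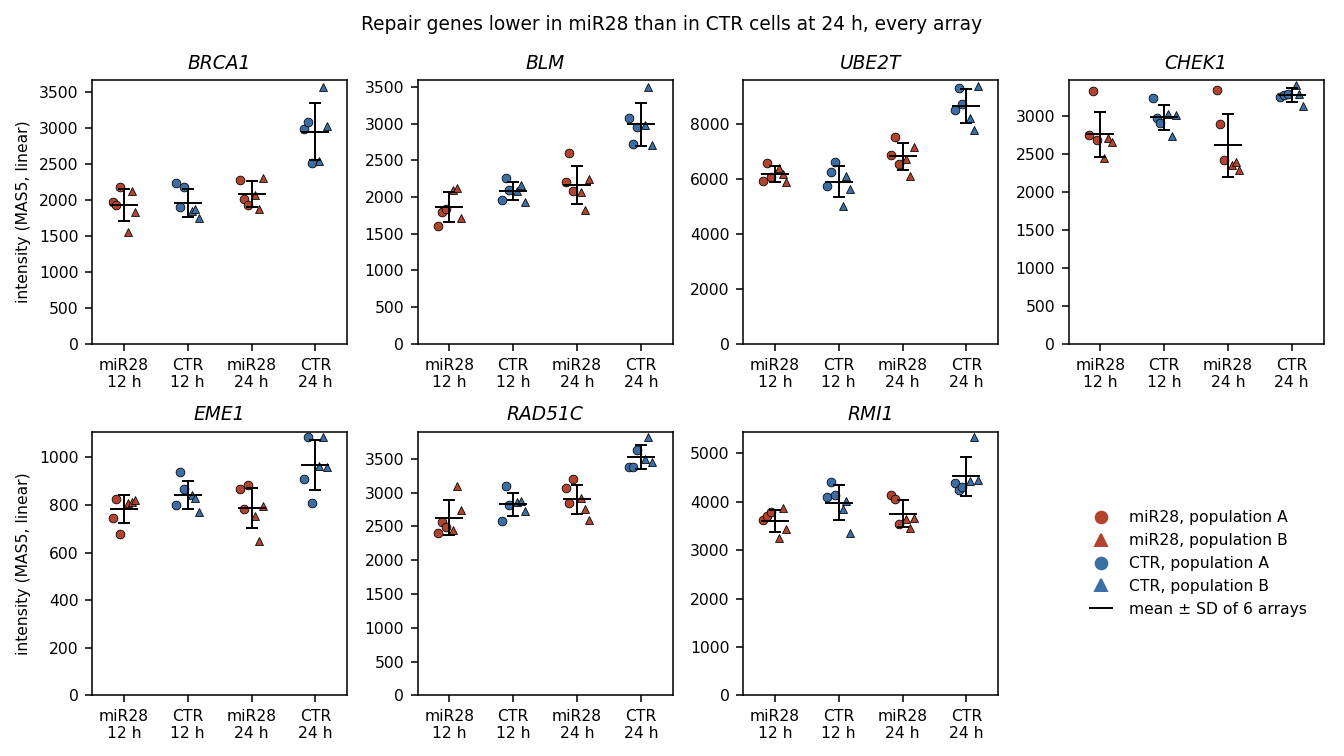
Intensity (MAS5, linear axis from 0) of the 7 genes called at 24 h, each point an array (circles population A, triangles B), with miR28 left of CTR at each time and bars for mean ± SD of 6 arrays. At 24 h the miR28 points of BRCA1, RAD51C, BLM, RMI1 and UBE2T all lie below the CTR points, while those of CHEK1 and EME1 overlap them.

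At 24 h, 6 genes (BRCA1, RAD51C, RAD54B, BLM, RMI1 and UBE2T) had all miR28 arrays below all CTR arrays, against 1.9% of all genes. None had all miR28 arrays above all CTR arrays, against 1.6% of all genes. The mean log2 intensity over the 37 genes was 9.90 to 10.11 on the miR28 arrays and 10.17 to 10.28 on the CTR arrays. The array with the ACTB ratio of 1.59 is 1 of these CTR arrays. Without the 2 arrays of high ACTB ratio, a setting chosen after seeing the data, 6 genes were called: BRCA1, RAD51C, BLM, UBE2T and CHEK1 again, and RAD54L. RMI1 and EME1 were then not called. BRCA1, RAD51C, BLM and UBE2T kept their calls when any single array was left out. Under median centring of each array in place of the deposited scaling, BRCA1, BLM and UBE2T were called. That setting moved the median of all genes by 0.06, and 72.6% of all called genes were then higher in miR28 cells, against 48.6% with the deposited scaling.

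In a fit of all 27306 probe sets above the filter, 7 of the 78 probe sets of these genes were lower in miR28 cells at 24 h, against 1.48% of all probe sets. They belonged to BRCA1, RAD51C, BLM, UBE2T, CHEK1, EME1 and FANCI. None was higher, against 1.27% of all probe sets. Averaged over both times 8 of the 78 were lower and none was higher, against 2.17% and 2.13% of all probe sets, EME1 contributing both of its sets. At 12 h none of the 78 was called, against 0.121% lower and 0.0439% higher, and 73.1% of the 78 lay below 0, against 49.3% of all probe sets. Among the 20 genes with several probe sets above the filter, at 24 h all probe sets lay below 0 for 10, all above 0 for 4, and on both sides for 6. Of 29 of the 78 with a mean intensity of at least 1000, 19 lay below 0 at 24 h and 6 were called. The same shares over all probe sets of that intensity were not computed, so these counts only describe the 29. Of all 78, 67.9% lay below 0 at 24 h, against 47.9% of all probe sets.

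**Figure D3:**
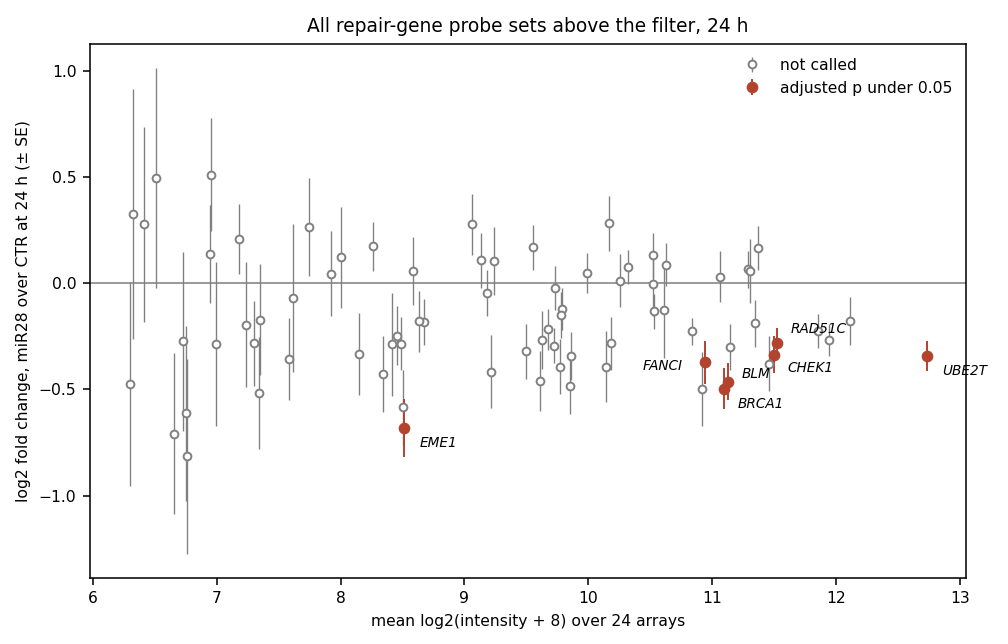
Log2 fold change of miR28 over CTR cells at 24 h (vertical axis) against mean log2(intensity + 8) over the 24 arrays for the 78 probe sets; points are limma estimates, bars their standard errors, and red points were called. The 7 red points lie below 0, and the spread is widest among dim probe sets.

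After 12 h none of the 37 genes was called in either direction, against 0.316% of all genes lower and 0.22% higher (limma). An unadjusted p under 0.05 was reached by 1 of the 37, PALB2, and by 9.67% of all genes. The median over the 37 was -0.06, and 30 of the 37 lay below 0, as did 46.5% of all genes. This lean was that of miR28 against CTR population A, in which 32 of the 37 estimates lay below 0 (48.6% of all genes). For miR28 against CTR population B, 17 of the 37 did (47.1% of all genes). The mean log2 intensity over the 37 genes at 12 h was 9.86 to 9.88 on miR28 arrays of population A and 9.86 to 9.92 of population B, against 10.01 to 10.05 on CTR arrays of population A and 9.82 to 9.93 of population B. The CTR arrays of A thus all lay above those of B. PALB2 had 606, 777 and 908 in miR28 cells (lowest, median and highest), against 755, 871 and 1021 in CTR cells, with overlap. No gene of the 37 had miR28 and CTR arrays apart at 12 h, against 0.422% of all genes with miR28 lower and 0.431% with miR28 higher. The PALB2 log2 fold change was -0.21 ± 0.10 (SE; limma adjusted p 0.511). RAD51B had 239, 279 and 345 in miR28 cells, against 166, 246 and 301 in CTR cells, and 0.23 ± 0.11 on the log2 scale (SE; limma adjusted p 0.536). For the genes called at 24 h the estimates at 12 h were -0.16 for BLM, -0.14 for RMI1, -0.12 for CHEK1, -0.11 for RAD51C, -0.10 for EME1, -0.02 for BRCA1 and 0.07 for UBE2T.

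Whether the effect differed between times was tested by limma as an interaction, the 24 h effect minus the 12 h effect. None of the 37 genes and none of all genes passed, while 4 of the 37 and 6.92% of all genes had an unadjusted p under 0.05. Of the 37 estimates 26 lay below 0, as did 49% of all genes. The largest statistics were those of UBE2T (-0.41 ± 0.10, limma adjusted p 0.331) and BRCA1 (-0.47 ± 0.13, limma adjusted p 0.431). The calls at 24 h are therefore not shown to differ from the values at 12 h.

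Averaged over both times, 8 of the 37 genes were lower in miR28 than in CTR cells and none was higher, against 3.55% and 3.99% of all genes. Of the 37, 32 lay below 0, as did 45.7% of all genes, and 17 had an unadjusted p under 0.05, as did 20.9% of all genes. BLM (-0.31, limma adjusted p 0.00102), RAD51C (-0.20), RMI1 (-0.20), BRCA1 (-0.26), CHEK1 (-0.23) and EME1 (-0.20) were called again. FANCI (-0.24 ± 0.07, limma adjusted p 0.0457) and RAD51AP1 (-0.39 ± 0.12, limma adjusted p 0.0472) joined them. UBE2T, whose estimates at 12 h and 24 h differ in sign, was not called (-0.14, limma adjusted p 0.0792). Both new calls, of FANCI and of RAD51AP1, were lost when the population was not taken as a random block, where 6 of the 37 genes were called. The FANCI and RAD51AP1 calls each failed without any of 15 single arrays. The FANCI call held only without the miR28 12 h arrays A2 or B1, the CTR 12 h arrays A3, B1, B2 or B3, the miR28 24 h array A1, or the CTR 24 h arrays A2 or A3. The RAD51AP1 call held only without the miR28 12 h arrays A1 or B3, the CTR 12 h arrays A3, B2 or B3, the miR28 24 h arrays A1 or B1, or the CTR 24 h arrays A3 or B3.

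In CTR cells 11 of the 37 genes were higher at 24 h than at 12 h and none was lower, against 3.6% and 2.54% of all genes. These values and the genotype comparison at 24 h share the CTR arrays at 24 h, so they are not separate evidence. Of the 37 changes with time in CTR cells 7 lay below 0, as did 50.5% of all genes, and 22 had an unadjusted p under 0.05, as did 20% of all genes. In the fit of every probe set 13 of the 78 were higher at 24 h and none was lower, against 1.59% and 1.5% of all probe sets, and 24.4% of the 78 lay below 0, against 54.7%. RAD54L, a motor protein that moves along DNA during strand exchange, had 690, 1106 and 1140 at 24 h (lowest, median and highest) and 430, 644 and 788 at 12 h, overlapping through 1 array, with a log2 change of 0.73 ± 0.13 (SE; limma adjusted p 0.00159). EXO1 had 973, 1101 and 1282 at 24 h and 496, 706 and 782 at 12 h, with a log2 change of 0.73 ± 0.14 (SE; limma adjusted p 0.00285). UBE2T had 7783, 8628 and 9378 at 24 h and 5008, 5936 and 6625 at 12 h, with a log2 change of 0.55 ± 0.07 (SE; limma adjusted p 7.09e-05). EXO1 and UBE2T did not overlap between times.

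BRCA1 had 2511, 3011 and 3564 at 24 h in CTR cells and 1754, 1883 and 2232 at 12 h, again without overlap, and rose by 0.58 ± 0.10 on the log2 scale (SE; limma adjusted p 0.000667). BLM had 2710, 2966 and 3494 at 24 h and 1933, 2092 and 2257 at 12 h, and rose by 0.52 ± 0.09 (SE; limma adjusted p 0.000721). The others called were RAD51AP1 (0.61), BRIP1 (0.56), FANCI (0.53), FANCG (0.53), RAD51B (0.40) and RAD51C (0.32), with limma adjusted p between 0.00554 (FANCI) and 0.0451 (RAD51AP1). Of the genes called in CTR cells, 4 were also those called between genotypes at 24 h: BRCA1, RAD51C, BLM and UBE2T. CHEK1, RMI1 and EME1 were not called with time in CTR cells (0.14, 0.19 and 0.20). BRCA1, BRIP1, RAD51C, BLM, UBE2T and EXO1 had all 24 h arrays above all 12 h arrays, against 2.36% of all genes. ATM had all 24 h arrays below all 12 h arrays, as had 1.57% of all genes, and was not called (-0.27, limma adjusted p 0.233).

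The RAD51B call in CTR cells was lost without any of 15 single arrays. It held only without the miR28 12 h arrays A2, A3 or B1, the CTR 12 h arrays A1 or B3, the miR28 24 h arrays A1, A3 or B1, or the CTR 24 h array A1. The RAD51AP1 call held only without the miR28 12 h arrays A1, A3 or B3, the CTR 12 h arrays A1, A2 or B1, the miR28 24 h arrays A1, A3 or B3, or the CTR 24 h arrays A3 or B3.

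In miR28 cells 2 of the 37 genes were higher at 24 h than at 12 h and none was lower, against 2.65% and 2% of all genes. Of the 37 changes 9 lay below 0, as did 49.6% of all genes, and 11 had an unadjusted p under 0.05, as did 18.9% of all genes. RAD54L had 661, 839 and 902 at 24 h (lowest, median and highest) and 459, 541 and 560 at 12 h, with no overlap and a log2 change of 0.61 ± 0.13 (SE; limma adjusted p 0.0101). FANCI had 2059, 2340 and 2944 at 24 h and 1677, 1807 and 1887 at 12 h, also without overlap, and rose by 0.41 ± 0.11 on the log2 scale (SE; limma adjusted p 0.0369). The FANCI call was lost without any single miR28 array other than A3 at 24 h. Under median centring RAD54L, FANCI, FANCL and CHEK2 were called, and 90.3% of all called genes were higher at 24 h, against 57% with the deposited scaling. RAD54L and FANCI had all 24 h arrays above all 12 h arrays, against 1.96% of all genes. No gene of the 37 had all 24 h arrays below all 12 h arrays, against 1.42% of all genes. By probe set 1 of the 78, that of RAD54L, was higher at 24 h and none was lower, against 0.981% and 0.901% of all probe sets, and 29.5% of the 78 lay below 0, against 53.3%. In miR28 cells the estimates for BRCA1, BLM and UBE2T were 0.11, 0.22 and 0.14, below those in CTR cells. The difference between genotypes in the change with time is the same interaction as above, in which no gene passed. The estimate was larger in CTR than in miR28 cells for 26 of the 37 genes, which describes these arrays. The median change with time over the 37 was 0.13 in miR28 cells and 0.26 in CTR cells.

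**Figure D4:**
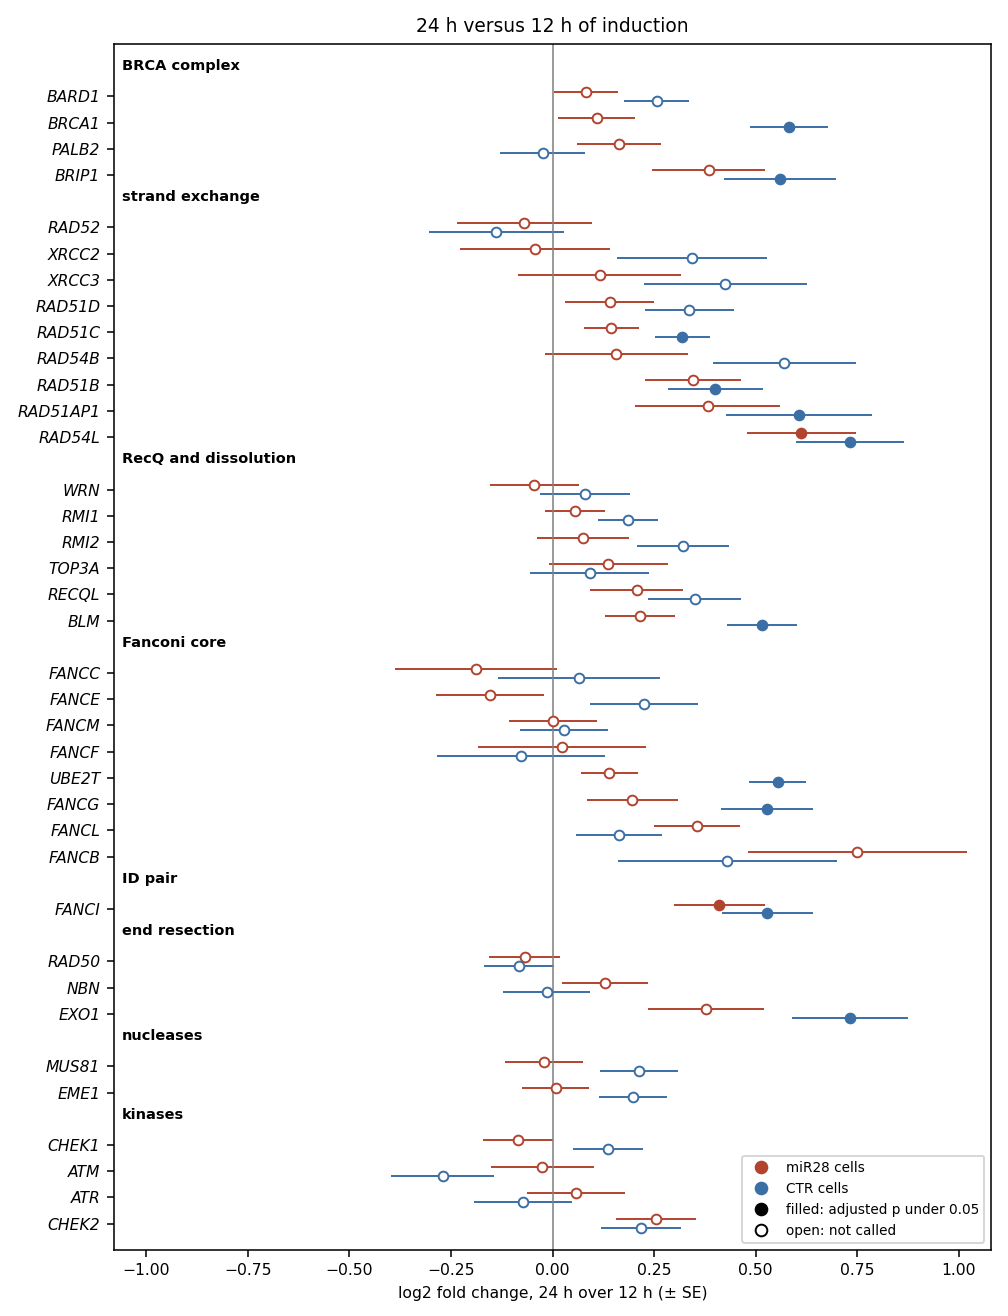
Log2 change at 24 h over 12 h for the 37 genes, grouped by role, in miR28 cells and in CTR cells; points are limma estimates on the log2(intensity + 8) scale, bars are their standard errors, filled points were called. RAD54L and FANCI are filled in miR28 cells, and 11 genes, all right of 0, are filled in CTR cells.

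No label pairs a miR28 population with the CTR population of the same letter, so values by letter only stand side by side. At 24 h the log2 fold change of miR28 over CTR cells in populations A and B was -0.46 and -0.54 for BRCA1, -0.35 and -0.58 for BLM, and -0.34 in both for UBE2T. It was -0.19 and -0.38 for RAD51C, -0.14 and -0.39 for RMI1, -0.20 and -0.48 for CHEK1, and -0.14 and -0.45 for EME1. All 7 called genes were lower under both letters. They were called on these same arrays, so this is not separate evidence. FANCG had -0.59 in A and -0.10 in B and FANCE had -0.64 and -0.15, and neither was called in the main fit. These values by letter come from a fit of means by genotype, population and time over all 24 arrays. There FANCG in A had a limma adjusted p of 0.0417. In B, BLM had 0.0205, CHEK1 0.0286 and RMI1 0.0484 (limma), and no other gene of the 37 was under 0.05 for either letter. With limma none of the 37 genes differed between populations in this effect, while 1 (FANCG) had an unadjusted p under 0.05, as had 6.2% of all genes. At 24 h 29 of the 37 estimates lay below 0 in population A and 30 in population B, against 47.7% and 47% of all genes. The effect was lower in A than in B for 22 of the 37 at 24 h, against 50% of all genes. At 12 h it was lower in A for 30 of the 37, against 51% of all genes. At 12 h again none of the 37 differed, and 3 had an unadjusted p under 0.05, as had 6.37% of all genes. These were BRIP1 (-0.43 in A and 0.24 in B), XRCC2 (-0.48 and 0.40) and ATM (-0.49 and 0.02). Population A against B within a genotype gave no call among the 37 either. In CTR cells 9 of the 37 estimates of A over B lay below 0, against 49.1% of all genes. In miR28 cells 20 of the 37 did, against 50.3%. A lean of the 37 in direction thus also arose between the CTR populations, which share a genotype. Unadjusted p values under 0.05 were reached by 2 of the 37 in miR28 cells (CHEK1 and ATM), against 5.04% of all genes. In CTR cells 4 reached it (BRIP1, XRCC2, RAD54L and FANCG), against 8.32%. These counts of p values, unlike the directions in CTR cells, lie near the share over all genes. These genes were named after their values were seen. When populations were the unit, with 1 mean per population and time, limma called none of the 37 genes and no gene at all.

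Other lists were written with those of the recombination genes, from textbook roles. All of them, with the replication and mitosis lists below, were chosen with earlier results of these data known. Of 46 measured genes of other recombination and crosslink repair steps, 1 was higher and 2 (4.35%) lower in miR28 cells at 24 h, with a median of -0.09. These counts lie near the 2.6% higher and 2.75% lower of all genes and are given as a description. The lower ones were USP1 (-0.30, limma adjusted p 0.0267), which removes ubiquitin from FANCD2, and MCM8 (-0.41, limma adjusted p 0.0277), a helicase of recombination. The higher one was BABAM1 (0.29, limma adjusted p 0.0277), a scaffold of a BRCA1 complex. Of 20 checkpoint and damage response genes, 3 were lower and none was higher, with a median of -0.15. They were the ATR activator TOPBP1 (-0.43), the fork protection factor TIMELESS (-0.37) and the adaptor MDC1 (-0.39), with limma adjusted p of 0.00569, 0.006 and 0.0246. None of 13 end joining genes, which repair breaks without a template, was called (limma), and their median was -0.09.

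Genes of DNA replication and of mitosis were set beside them. Of 35 replication genes 17 were lower in miR28 cells at 24 h and none was higher, with a median of -0.35. Of 30 mitosis genes 17 were lower and none was higher, with a median of -0.30. The 37 recombination and Fanconi genes had 7 lower and -0.22. With time in CTR cells 27 of the 35 replication genes rose (median 0.51), as did 3 of the 30 mitosis genes (median 0.11), against 11 of the 37 (median 0.26). With time in miR28 cells 14 replication genes rose and none fell, 9 mitosis genes fell and none rose, and 2 of the 37 rose. The part of cell-cycle distribution in these values was not tested.

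**Figure D5:**
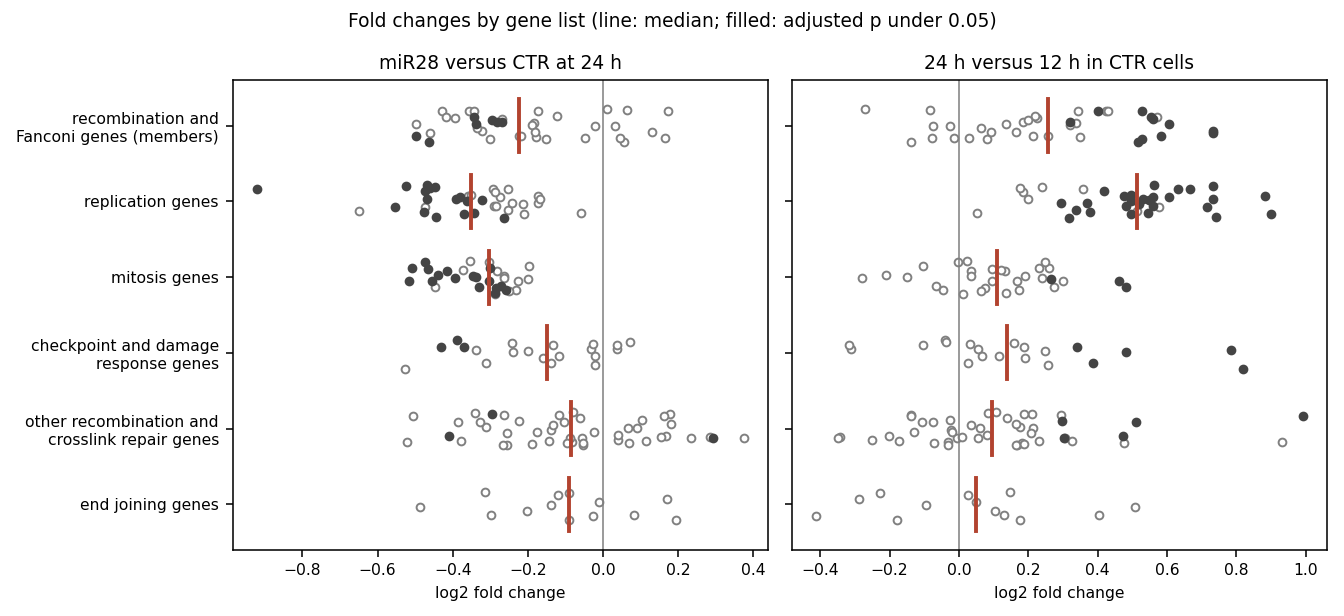
Log2 fold change of miR28 over CTR cells at 24 h (left) and of 24 h over 12 h in CTR cells (right) for each gene of the recombination and Fanconi list and of the other lists; points are limma estimates on the log2(intensity + 8) scale, filled where called, and lines mark each list's median. At 24 h the medians are -0.22 for the 37 genes, -0.35 for replication, -0.30 for mitosis and -0.09 for end joining.

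Promoter motifs were counted for the 32 of 37 genes with a window in the RefSeq table, beside all 27305 genes of the table, on both strands. CCAAT stood in 16 of 32 (50%) and in 39.7% of all genes, in 18 of 32 replication genes and in 20 of 25 mitosis genes. Among the 7 genes lower at 24 h, 5 held it. A gene counted where any of its windows matched, and these 7 genes had 12 windows, against 35116 windows for all 27305 genes. More windows give a gene more chances to match, so 5 of 7 and 39.7% are not a like comparison. The 32 genes had 44 windows, so the same limit holds for their shares of every motif. The 27305 genes also include genes that were not tested here. TTTNNCGC, a form of the E2F site, stood in 5 of 32 (15.6%) and in 8.23% of all genes, against 21 of 32 replication genes. TTTGAA, the core of the cell cycle homology region, stood in 4 of 32 (12.5%) and in 18.2% of all genes, against 19 of 25 mitosis genes. Matches of different motifs may overlap and were counted for each, and these shares describe letters in the windows only.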

How the data were processed

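RNA of 24 cultures was measured on Affymetrix arrays, and per the labels biotinylated cRNA came from total RNA. The deposited values are intensity per probe set on a linear scale, made by the authors with MAS5, per the submitters' processing notes; no version or setting of it was found in them. Each array had a 2% trimmed mean of 500.069 to 500.076, so the deposited scaling was kept. Of 54675 probe sets, 62 were controls and left out, 41091 had 1 symbol, 1801 several and 11721 none. Symbols were updated through a RefSeq table, and 54 probe sets were not matched and kept the annotation's symbol.

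Values were analysed as log2(intensity + 8), which understates changes of dim genes. The probe set of highest mean stood for its gene, and 11380 genes with a mean above 6.11, the median of all probe sets other than controls, were tested. In R 4.3.3, limma 3.58.1 fitted 4 group means, and statmod 1.5.0 served to estimate the correlation within bulk populations, taken as random blocks (-0.0229). Each population has 1 genotype, so this negative value narrowed the standard errors between genotypes and did not guard against repeated inductions. For BRCA1 the standard error was 0.0921 between genotypes at 24 h and 0.0953 with time in CTR cells. Without the block the same 7 genes were called at 24 h, and 6 averaged over both times. All tests were two-sided, with Benjamini-Hochberg adjustment over all genes, and a call needs an adjusted p under 0.05. The same model was fitted to all 27306 probe sets above the filter (consensus correlation -0.0249). The code was tested on simulated data. Replicate numbers do not pair samples: same-numbered arrays had correlations of their deviations from group means of -0.0938 to 0.0695. Precision is limited by the number of arrays, which carry no read depth.

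The 41 genes and all lists were chosen with earlier results of these data known. Array values are given for genes called between genotypes, for the 2 with the largest statistic at 12 h and for some of the genes called with time. Those of RAD54B were added after its values were seen, because its groups did not overlap. For the contrasts with time the called genes are named, for the interaction the 2 with the largest statistic, and of the other lists the called genes, at most 6. Replication and mitosis genes are given as counts. Genes that missed the threshold are named because every gene of the list is accounted for. The alternatives were pseudocounts of 1 and 32, filters, scalings, the mean of all probe sets, block structures, populations apart, an intensity trend and each array left out.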

Additional observations from a re-analysis of the deposited data

Results flagged for a closer look

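In 60 groups of 6 arrays, covering the 15 genes named for a comparison, 4 arrays stood apart from the others of their group by Dixon's test, and chance alone gives about 1 in 20 groups. RMI1 had 5344 on the CTR 24 h array of population B, induction 2, against 4247 to 4451 on the other 5 CTR arrays. FANCI had 4052 on the same array, against 2543 to 2943. RAD54L had its lowest value, 690, on that array too, against 998 to 1140. This is the array with the ACTB ratio of 1.59, whose part in these values was not tested. RAD51B had 407 on the miR28 24 h array of population B, induction 1, against 341 to 364 on the other 5 miR28 arrays.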

How the results depend on the processing

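Across 38 alternatives no named estimate changed sign. Of the calls at 24 h, BRCA1, BLM and UBE2T passed in 35 of 38, RAD51C in 34, CHEK1 in 31, RMI1 in 27 and EME1 in 23. With no filter on low values, 30 genes were called at 12 h, 368 at 24 h, 569 averaged over times, 207 with time in miR28 cells and 364 in CTR cells, and of the recombination and Fanconi genes 4 at 24 h, 5 averaged and 1 with time in miR28 cells; of their probe sets 3 were called at 24 h and 2 averaged. The filter at the 75th percentile left out RAD51B and the genes dimmer than it, so fewer than 37 were tested. With it, 11 of these genes and 13 of their probe sets were called at 24 h, among 818 of all genes. The numbers tested under this filter are not given here, so these counts are not set against a share. With median centring, 3 of the 37 genes were called at 24 h, 3 averaged and 4 with time in miR28 cells, 4 probe sets at 24 h and 3 averaged, and 421 of all genes with time in CTR cells; at 12 h 26.7% of called genes were then higher, against 41%. With the mean of all probe sets, 30 genes were called at 12 h, 292 with time in miR28 cells, and 1 of the 37 there. With population means as the unit 0 genes were called in any comparison. In populations A only and B only, 0 and 0 genes were called at 12 h, 48 and 38 at 24 h, 83 and 97 averaged, 8 and 2 with time in miR28 cells and 17 and 34 in CTR cells, and 0 of the 37 in each.

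The replicate block, in which numbers share no known source, left 6 of the 37 genes called at 24 h (EME1 lost), 6 averaged over times (FANCI and EME1 lost) and 5 probe sets averaged over times. At 24 h 1 in 6 numbers in miR28 cells correlated best with its own number in CTR cells.

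Leaving out each array in turn called 28 to 74 genes at 12 h (28 without CTR 12 h A1), 454 to 672 at 24 h, 603 to 916 averaged, 350 to 573 with time in miR28 cells (350 without miR28 12 h B1), 491 to 742 in CTR cells and 0 to 1 for the interaction. Of the 37 genes it called 0 to 0 at 12 h and for the interaction, 4 to 8 at 24 h (4 without miR28 24 h B1), 6 to 10 averaged, 1 to 3 with time in miR28 cells and 9 to 12 in CTR cells. Of their probe sets it called 0 to 0 at 12 h, 4 to 8 at 24 h (4 without miR28 24 h B1, B2 or B3) and 4 to 10 averaged (4 without CTR 12 h A1). The cause of these shifts was not tested.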
